A study of Homo sapiens with 17 samples.

Results

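The effect of IMT1 on mitochondrial double-stranded RNA (mtdsRNA) was measured by J2 RIP-seq in 3 human lung cancer cell lines, H1437, H23, and PC9. All 37 genes of the mitochondrial chromosome (ChrMT) and the D-loop were followed, as 38 of the 99 rows of the deposited count table. The 6 libraries were an IMT1 library and a control library of each line, among 17 libraries in the study. The labels name IMT1 but do not name the controls. The library of a line whose alignment carries the same name without the drug was taken as its control, and the cell line is the pair. The 9 numbered untreated libraries, 3 per line, served as the untreated range. All 3 are established lines labeled as non-small cell lung carcinoma, grown in the same medium per the methods of the study, and no transgene or genetic change is named for them. Each line and treatment is a single library, and the dose and duration of IMT1 are not given in the sources used here.

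IMT1 inhibits POLRMT, the RNA polymerase of the mitochondrion. POLRMT starts at promoters in the noncoding control region and copies both strands into long transcripts that are cut at the tRNAs into rRNAs, mRNAs, and tRNAs. Most genes belong to the transcript that begins just before TRNF. ND6 and a set of tRNAs belong to the transcript of the opposite strand, whose remainder is antisense to the other genes and can pair with their RNA. J2 is an antibody that binds double-stranded RNA regardless of sequence. A read in these libraries therefore comes from RNA recovered with J2 and not from total RNA, and lower capture, fewer cells, and less RNA per cell cannot be told apart. The labels name no library made without J2, so RNA carried over without binding cannot be told apart from bound RNA. The deposited counts do not separate the strands of the reads. Strand below means the strand of the gene in the annotation.

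Total reads ranged from 459980, in the H1437 control, to 675331, in the PC9 control. Counts were scaled to 1000000 total reads, mapped or not, and CPM stands for this unit throughout. The gene rows held from 4268 counts, in the H1437 IMT1 library, to 61871, in the H23 control. Several untreated libraries stood apart. Replicate 1 listed 0 counts on 18 of the 22 tRNA gene rows in H1437 and on 20 in PC9. Each gene also has a second row (rRNA, CDS, or tRNA) of the same interval. The second rows of the 22 tRNA genes together held 37078 counts in H1437 replicate 1, against 1148 on the gene rows. In PC9 replicate 1 they held 1757, against 66. Values below are those of the gene rows and the D-loop row unless second rows are named. H23 replicate 1 held only 122304 total reads. The controls also stood apart from the numbered untreated libraries of their own line, with 18 of 38 H1437 rows, 17 H23 rows, and 6 PC9 rows above that range. The tables hold no nuclear genes, so the identity of the lines could not be checked against markers. A ratio below is the IMT1 value over the control value. Its 95% interval is an exact binomial (Clopper-Pearson) interval of the counts that covers counting error alone, because these PCR reads carry no molecular identifiers and can copy the same molecule.

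The 2 rRNA genes were lower with IMT1 in all 3 lines. RNR1 (positions 648 to 1601) encodes the 12S rRNA of the small mitochondrial ribosomal subunit. It gave 11442 CPM in the H1437 control and 1852 with IMT1, a ratio of 0.162 (interval 0.151 to 0.174). In H23 it gave 33825 and 6841 CPM, a ratio of 0.202 (0.196 to 0.209), and in PC9 27465 and 13116 CPM, a ratio of 0.478 (0.464 to 0.491). The IMT1 libraries of H1437 and H23 thus lay below every untreated or control library of their line. The PC9 IMT1 library lay within the PC9 untreated libraries, which ran from 5749 to 22530 CPM. In every line the control was above each untreated library, the highest of which had 11316 CPM in H1437 and 30838 in H23.

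RNR2 (positions 1671 to 3229) encodes the 16S rRNA of the large subunit. It gave 7068 CPM in the control and 1805 with IMT1 in H1437 (ratio 0.255, interval 0.237 to 0.276), 14853 and 4835 in H23 (0.326, 0.312 to 0.340), and 25266 and 5295 in PC9 (0.210, 0.201 to 0.218). RNR2 was the 1 row of 38 whose IMT1 value was below the untreated range in each of the 3 lines. In PC9 the lowest untreated library, at 5493 CPM, was close to it. The H1437 control of RNR2 was itself below the untreated libraries (10937 to 13025 CPM). The PC9 control was above them, the highest being 17311 CPM. RNR1 had the lower ratio of the 2 genes in H1437 and H23, and RNR2 in PC9. In edgeR's quasi-likelihood test with the cell line as a block, the log2 fold change was -2.01 for RNR1 (SE 0.87, adjusted P = 0.594 from edgeR) and -1.95 for RNR2 (SE 0.82, edgeR adjusted P = 0.594). Neither passed the adjustment, with 3 of 3 lines lower for both. Against the mean of the 3 untreated libraries in place of the control, RNR1 in PC9 turned to a log2 ratio of 0.12, while RNR2 stayed negative in each line, from -2.72 to -0.88.

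**Figure D1:**
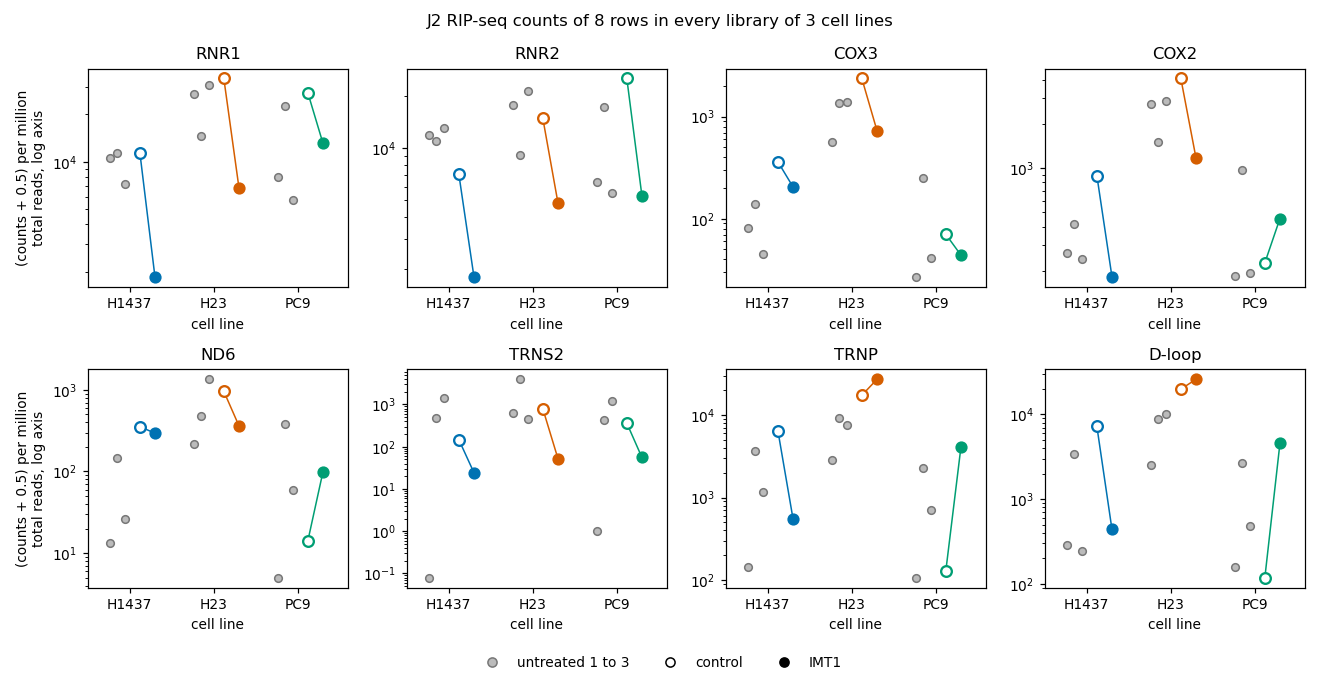
Counts, each with 0.5 added before scaling to CPM (log axis), of 8 rows in H1437, H23, and PC9, with untreated replicates 1 to 3 in gray, the control as an open circle, and IMT1 as a filled circle joined to it by a line. RNR1, RNR2, COX3, and TRNS2 slope down in every line, COX2 and ND6 slope down in H1437 and H23 and up in PC9, and TRNP and the D-loop slope down in H1437 and up in H23 and PC9.

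Across the whole set, direction was counted for the 29 rows with at least 10 counts in either library of every pair. They were both rRNA rows, 11 of 13 protein-coding rows, 15 of 22 tRNA rows, and the D-loop row. The other 9 rows were ATP8, ND4L, and 7 tRNA genes. A ratio under 1 in all 3 lines was found for 7 rows (24.1%), namely RNR1, RNR2, ND4, COX3, ATP6, TRNS2, and TRNS1. A ratio over 1 in all 3 lines was found for 0 rows (0%). For 4 rows (13.8%), RNR1, RNR2, ND4, and TRNS2, the counting interval was also under 1 in each line. An interval over 1 in each line was found for 0 rows. Against the mean of the 3 untreated libraries, 8 of 29 rows were lower in all 3 lines, and RNR2, TRNS1, and TRNS2 were the 3 rows shared with the 7.

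Line by line, 22 of the 29 intervals lay under 1 in H1437 (75.9%) and 2 over 1 (6.9%). In H23, 22 lay under 1 (75.9%) and 6 over 1 (20.7%). In PC9, 10 lay under 1 (34.5%) and 15 over 1 (51.7%). The median log2 ratio of the 29 rows was 1.00 in PC9, -1.11 in H1437, and -1.14 in H23. The most frequent pattern was lower in H1437 and H23 and higher in PC9, with 12 rows, 11 of which (37.9%) had counting intervals clear of 1 in all 3 lines. The 11 were ND1, ND2, ND3, ND5, COX1, COX2, CYTB, TRNF, TRNQ, TRNW, and TRNA. Against the mean of the 3 untreated libraries, only TRNW, TRNA, and COX2 kept this pattern, COX2 at a log2 ratio of 0.015 in PC9. ND1, ND2, ND3, ND5, ND6, COX1, CYTB, and TRNQ were then higher in H1437 and lower in H23 and PC9. TRNF was then lower in all 3 lines. For all 13 coding rows, the PC9 IMT1 value lay within the untreated PC9 libraries. The sign of the ratio to the control was shared by 20 of 29 rows between H1437 and H23 (69%), by 13 between H23 and PC9, and by 10 between H1437 and PC9. Across these 29 rows, which share their libraries and are not independent replicates, Pearson's r of the log2 ratios was 0.26, 0.06, and -0.55 for the same pairs of lines.

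**Figure D2:**
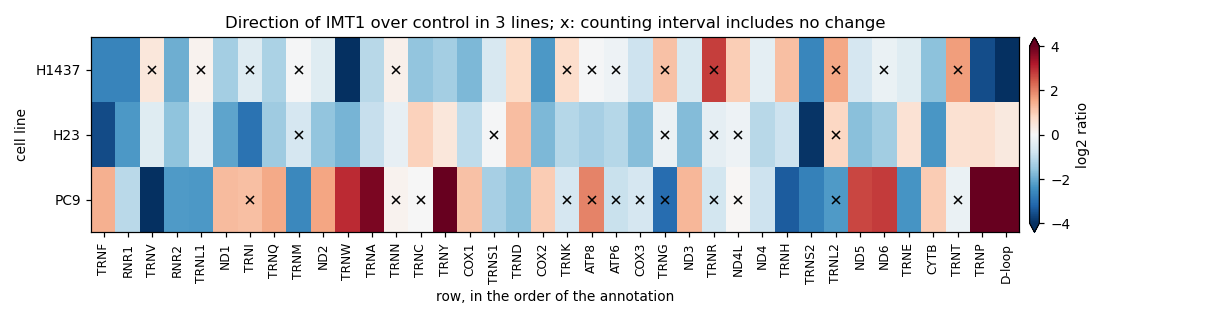
Log2 ratio of IMT1 to control (color, capped at -4 and 4) for all 38 rows in the order of the annotation and for each cell line, with a cross where the 95% counting interval includes no change. Blue prevails in H1437 and H23 and red is frequent in PC9, and RNR1, RNR2, ND4, and TRNS2 are blue without a cross in all 3 lines.

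Tested over the 3 lines, 0 of 34 rows had an adjusted P under 0.05 in edgeR (0%), and 2, RNR2 and TRNS2, had an unadjusted P under 0.05 (5.88%), both lower. The smallest adjusted P was 0.325, for TRNS2. DESeq2 on the same total reads called 1 of 34 rows (2.94%), TRNS2. Without the PC9 pair, edgeR called 5 of 31 rows (16.1%), ND1, COX2, CYTB, TRNW, and TRNS2, all lower, and without either of the other pairs it called 0. The spread between the lines is the sole error term of these fits, since each line and treatment is a lone library. In a fit chosen after seeing the data, with the 9 untreated libraries and a treatment term per line, the difference between lines passed the adjustment for 0 of 34 rows (0 at an unadjusted P under 0.05).

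TRNS2 (positions 12207 to 12265), 1 of 2 mitochondrial serine tRNA genes, had the lowest mean log2 ratio of the 29 rows, at -3.07 with an SD of 0.73 over the 3 lines. It gave 145.7 CPM in the control and 23.2 with IMT1 in H1437 (67 and 11 counts), 788.5 and 51.5 in H23 (435 and 31 counts), and 359.8 and 54.8 in PC9 (243 and 28 counts). The ratios were 0.159 (interval 0.0759 to 0.304), 0.0653 (0.0439 to 0.0941), and 0.152 (0.0990 to 0.226). In H23 the IMT1 value was below each of the untreated libraries, which ran from 448.9 to 3931 CPM. In H1437 and PC9 it was above only replicate 1, where TRNS2 was listed at 0. The edgeR log2 fold change was -3.10 (SE 0.89, adjusted P = 0.325), and DESeq2 gave -3.11 (SE 0.83, adjusted P = 0.00658). TRNS2 lies between TRNH, which was higher in H1437 at a ratio of 2.33 and lower in H23 and PC9 at 0.560 and 0.0966, and TRNL2, which had at most 22 counts in any of the 6 libraries.

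TRNS1 (positions 7446 to 7514), the other serine tRNA gene and annotated on the opposite strand, was the other tRNA gene with a ratio under 1 in all 3 lines. It gave 156.5 and 99.1 CPM in H1437, 293.7 and 285.9 in H23, and 50.4 and 19.6 in PC9, for control and IMT1. The difference in H23 was within counting error (ratio 0.973, interval 0.781 to 1.21).

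Of the protein-coding rows, 3 had a ratio under 1 in all 3 lines. COX3 (positions 9207 to 9990) encodes a core subunit of cytochrome c oxidase, complex IV of the respiratory chain. It gave 360.9 CPM in the control and 204.6 with IMT1 in H1437, 2367 and 731.3 in H23, and 69.6 and 43.0 in PC9. ND4 (positions 10760 to 12137), a membrane subunit of complex I, gave 882.6 and 674.9 CPM in H1437, 5411 and 2513 in H23, and 272.5 and 152.5 in PC9. ATP6 (positions 8527 to 9207), a subunit of the proton channel of ATP synthase, gave 180.4 and 158.2 in H1437, 1129 and 513.6 in H23, and 37.02 and 19.6 in PC9. The mean log2 ratios over the lines were -1.06 for COX3, -0.77 for ND4, and -0.73 for ATP6, with edgeR adjusted P = 0.885 for each. In H1437 all 3 IMT1 values were nevertheless above each of the numbered untreated libraries, and in H23 and PC9 they were within them.

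Against the control, the remaining coding rows with enough counts ran in opposite directions in the lines. COX2 and COX1, the other complex IV subunits, had ratios of 0.204 and 0.290 in H1437, 0.289 and 0.491 in H23, and 2.00 and 2.24 in PC9. CYTB, the one mitochondrial gene for a subunit of complex III, had ratios of 0.318, 0.201, and 2.05. ND5, the longest coding gene and a complex I subunit, gave 1248 and 790.9 CPM in H1437, 5086 and 1582 in H23, and 25.2 and 164.2 in PC9. The PC9 control was below the 3 untreated PC9 libraries for ND5, which ran from 27.9 to 1120 CPM, and the PC9 IMT1 library was within them.

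Summed by respiratory complex, the 7 complex I rows had ratios of 0.701 for H1437, 0.368 for H23, and 1.57 for PC9. The 3 complex IV rows had ratios of 0.298, 0.380, and 1.90. The ATP synthase rows, ATP6 with the low ATP8, had ratios of 0.884 (interval 0.647 to 1.21), 0.452 (0.394 to 0.518), and 0.581 (0.258 to 1.22). All 11 coding rows with enough counts had a ratio under 1 in H1437 and in H23, and 3 of 11 had one in PC9.

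By gene class, the rRNA sum was the one class that was lower in each line. The H1437 control had 18510 CPM and the IMT1 library 3657. In H23 these were 48679 and 11676 CPM, and in PC9 52731 and 18411. The H1437 control sum was below its untreated sums (20219 to 22488 CPM). The PC9 control sum was above its untreated sums (11242 to 39841 CPM), and the PC9 IMT1 sum was within them. The mean log2 ratio was -1.97 ± 0.42 (SD, n = 3 lines; P = 0.25 in a two-sided exact permutation test over sign flips, which can go no lower with 3 pairs). The coding sum was 6972 CPM in the control and 3514 with IMT1 in H1437, 35999 and 12579 in H23, and 986.2 and 1701 in PC9, with a mean log2 ratio of -0.57 ± 1.21 (exact permutation test, P = 0.50). The tRNA sum was 8496 and 1831 CPM in H1437, 27477 and 33960 in H23, and 2837 and 5301 in PC9, with a mean log2 ratio of -0.34 ± 1.65 (exact permutation test, P = 1.0). The spread of the last 2 classes between lines exceeded their means. Against the mean of the untreated libraries, the coding sum turned direction in H1437, to a log2 ratio of 0.92, and in PC9, to -0.60, and the rRNA sum in PC9 was -0.24.

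**Figure D3:**
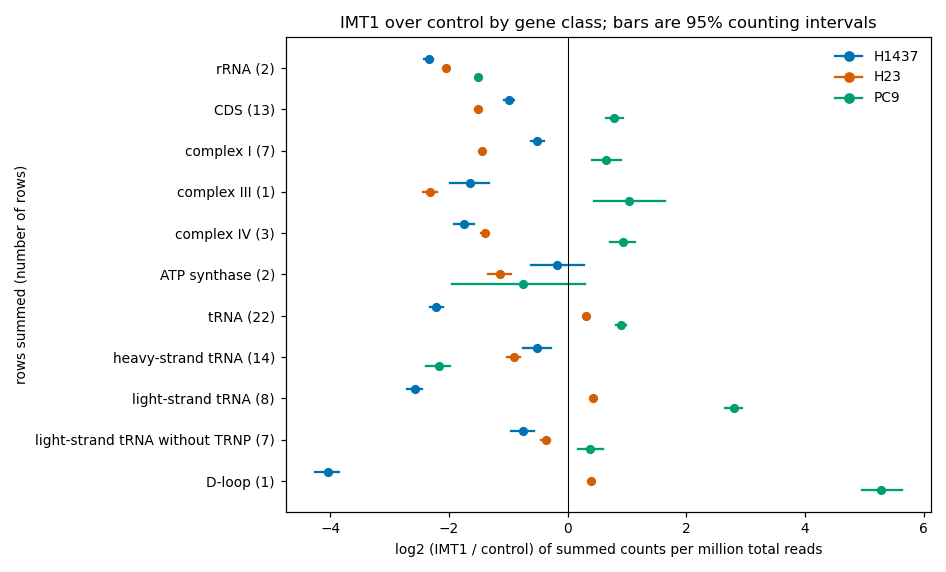
Log2 ratio of IMT1 to control for counts summed over gene classes (number of rows in parentheses) in each cell line, with 95% counting intervals as bars. The rRNA sum is left of 0 in all 3 lines, from -2.34 to -1.52, and the coding, tRNA, and D-loop sums lie on both sides of 0.

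The tRNA sum took the direction of TRNP. TRNP (positions 15956 to 16023), the proline tRNA gene on the minus strand, gave 6474 CPM in the control and 554.7 with IMT1 in H1437, 17308 and 27004 in H23, and 128.8 and 4090 in PC9. The other 21 tRNA rows together gave 2022 CPM in the control and 1276 with IMT1 in H1437, 10169 and 6956 in H23, and 2708 and 1210 in PC9. Without TRNP, a split chosen after seeing the data, the tRNA sum was thus lower in all 3 lines, with ratios of 0.631, 0.684, and 0.447. Its IMT1 values stayed within the untreated libraries of each line.

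The D-loop row adjoins TRNP. The D-loop is the noncoding region that holds the promoters and the origin of heavy-strand replication. Its row begins at position 16024 and covers the last 546 bases of the sequence, although the annotated interval runs past the end, to 17145. The stretch just before TRNF (position 577), where the transcript of most genes begins, lies outside the row. It gave 7239 CPM in the control and 436.6 with IMT1 in H1437, a ratio of 0.0603 (interval 0.0522 to 0.0694). In H23 it gave 19938 and 26025, a ratio of 1.31 (1.27 to 1.34). In PC9 it gave 117.0 and 4573, a ratio of 39.1 (31.2 to 49.6). In PC9 this was the highest ratio of the 29 rows, and in H1437 only TRNW had a lower one. The PC9 control, with 79 counts, was below the 3 untreated PC9 libraries (155.6 to 2645 CPM). The IMT1 libraries of H23 and PC9 were above each untreated and control library of their line for both the D-loop and TRNP, and the H1437 IMT1 library was within the range for both. The mean log2 ratio of the D-loop was 0.54 ± 4.67 (SD, n = 3 lines; exact permutation test, P = 0.75), and it was -1.83 without the PC9 pair. With the mean of the 3 untreated libraries in place of the control, the log2 ratio of the D-loop kept its sign in each line but was -1.60 in place of -4.05 for H1437, 1.87 in place of 0.38 for H23, and 2.06 in place of 5.28 for PC9. For TRNP it was likewise -1.57 in place of -3.54, 2.06 in place of 0.64, and 1.99 in place of 4.98. Counts of the D-loop over those of TRNP were between 0.787 and 1.15 in the 6 libraries of the IMT1 experiment and between 0.207 and 2.00 in the 9 untreated libraries.

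The tRNA genes were also followed by neighborhood. Those beside the rRNAs (TRNF, TRNV, and TRNL1 for phenylalanine, valine, and the first leucine tRNA) summed to ratios of 0.595, 0.614, and 0.114 in H1437, H23, and PC9. Within them, TRNV in PC9 went from 528 counts to 10 (ratio 0.0250, interval 0.0119 to 0.0464), the lowest ratio of the 29 rows in any line. The PC9 control of TRNV, at 781.8 CPM, was above the untreated PC9 libraries (0 to 551.8 CPM). On its second row TRNV in PC9 went from 679 counts to 81, a log2 ratio of -2.66 in place of -5.25. TRNF in PC9 was at a ratio of 2.72. The cluster after ND1 (TRNI, TRNQ, and TRNM) had ratios of 0.444, 0.363, and 1.39. The cluster of 5 around the origin of light-strand replication (TRNW, TRNA, TRNN, TRNC, and TRNY) had ratios of 0.478, 0.817, and 2.81. The tRNAs from TRNS1 to TRNR had ratios of 1.21, 1.51, and 0.333. Among them, TRND had log2 ratios of 0.78, 1.24, and -1.64, each with an interval clear of no change. These directions did not all hold on second rows, where the neighborhoods were not summed. There TRND was at -0.37, 0.49, and -0.42, and TRNS1 at -1.71, -1.04, and 0.19. TRNK, TRNG, and TRNR were each lower in all 3 lines on second rows. The cluster of TRNH, TRNS2, and TRNL2 had ratios of 0.568, 0.208, and 0.130. It and the rRNA-flanking tRNAs were the 2 neighborhoods of 6 with intervals under 1 in all 3 lines. The IMT1 values of both sums were below the untreated libraries in H23 and within them in H1437 and PC9. In H1437 a single gene row carried each of these sums. TRNF (ratio 0.151) stood beside TRNV and TRNL1 at 1.37 and 1.12 with intervals spanning 1, and TRNS2 beside the higher TRNH. The gene rows of TRNV and TRNL1 held 19.5% and 0.917% of the counts on their second rows in the H1437 control. On second rows, TRNV and TRNL1 were lower in H1437, at log2 ratios of -1.61 and -3.22, and TRNH was at 0.16. The last neighborhood (TRNE, TRNT, and TRNP) had ratios of 0.106, 1.56, and 10.5.

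By strand, the 14 tRNA genes of the plus strand summed to ratios of 0.696 (interval 0.590 to 0.819) in H1437, 0.531 (0.494 to 0.571) in H23, and 0.221 (0.192 to 0.253) in PC9. The 12 plus-strand coding genes had ratios of 0.487, 0.349, and 1.65. The 8 minus-strand tRNA genes had ratios of 0.167, 1.35, and 6.95 with TRNP, and 0.591 (0.516 to 0.676), 0.772 (0.735 to 0.810), and 1.30 (1.13 to 1.51) without it. These are sums of gene rows, and the strands were not summed on second rows. The 2 kinds of row had equal counts in 12 to 15 of 15 libraries for TRNQ, TRNA, TRNN, TRNC, and TRNP. For the minus-strand TRNS1, TRNY, and TRNE they did so in 0. For plus-strand tRNA genes they did so in at most 2, apart from TRNS2 (14). The strands thus also differ in how their rows were counted. ND6, the one minus-strand coding gene and a complex I subunit, gave 354.4 and 293.2 CPM in H1437 (ratio 0.827, interval 0.655 to 1.04), 958.9 and 362.3 in H23 (0.378, 0.321 to 0.443), and 13.3 and 97.8 in PC9 (7.34, 3.57 to 17.0). The log2 ratios of the 9 minus-strand genes ran from -3.54 (TRNP) to 0.21 (TRNN) in H1437, from -1.42 (TRNQ) to 0.91 (TRNC) in H23, and from -2.37 (TRNE) to 4.98 (TRNP) in PC9.

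Distance along ChrMT was taken from the start of TRNF, the first gene after the heavy-strand promoters, to the midpoint of each row. The same distance was used for the minus-strand genes, although they belong to the transcript of the opposite strand. Measured the other way round ChrMT, TRNP and the D-loop lie 1.16 and 0.85 kb from the start of TRNF. Spearman's rho between distance and log2 ratio was 0.02 in H1437, 0.19 in H23, and 0.15 in PC9 over the 29 rows, and 0.24, 0.05, and -0.05 without TRNP and the D-loop. Over the 11 coding rows it was 0.25, -0.06, and 0.12, and over the 15 tRNA rows 0.03, 0.46, and -0.06. With the genome divided into 4 equal segments by distance, the median log2 ratios from the nearest to the farthest segment were -1.36, -1.24, -0.49, and -1.15 in H1437. They were -1.62, -0.64, -1.41, and -0.51 in H23 and -1.07, 1.08, -0.86, and 2.74 in PC9. No line had an order of medians that followed distance. The first segment, which holds both rRNAs, was lower in all 3 lines as a sum (ratios 0.210, 0.252, and 0.350), as was the third, from ATP6 to TRNL2 (0.759, 0.418, and 0.360).

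**Figure D4:**
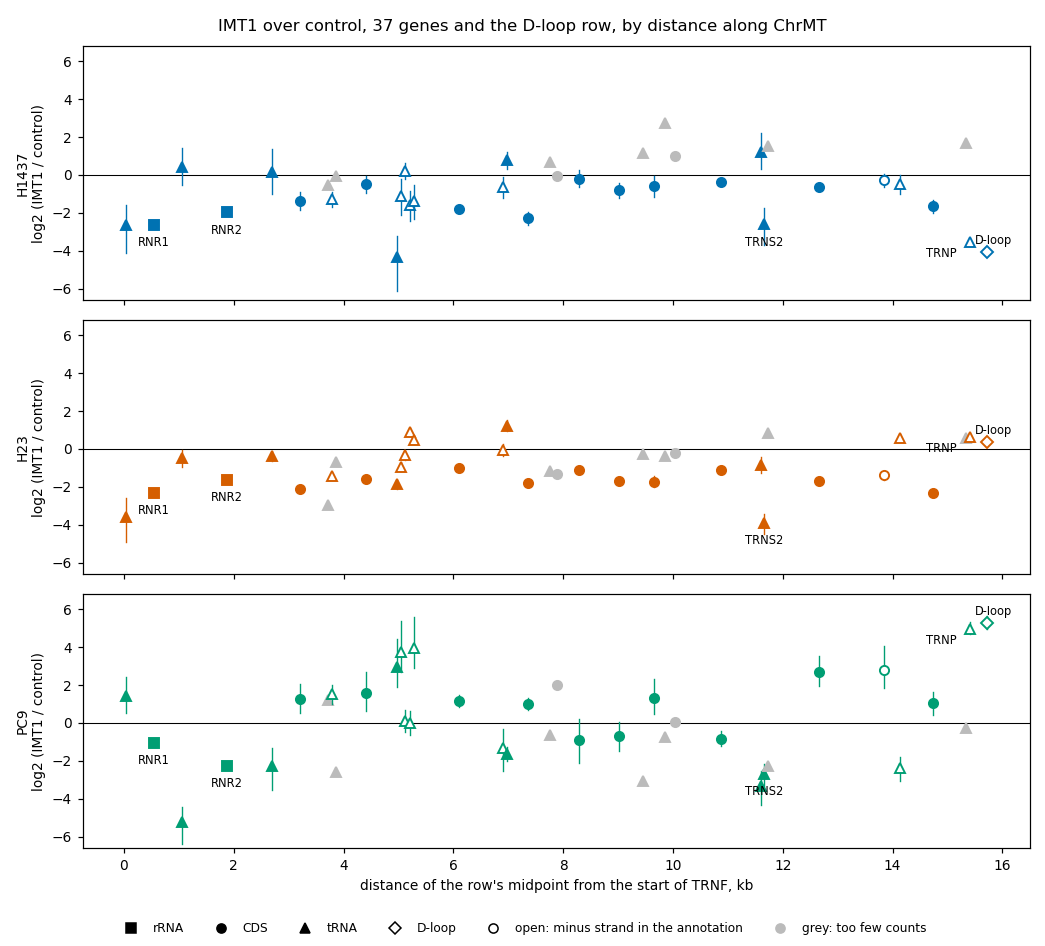
Log2 ratio of IMT1 to control against distance from the start of TRNF in kb for each cell line, with squares for rRNA, circles for coding, triangles for tRNA, and a diamond for the D-loop row, open symbols for minus-strand rows, gray symbols for rows with too few counts, and bars for 95% counting intervals. RNR1, RNR2, and TRNS2 are below 0 in each panel, and no slope with distance is shared. The D-loop and TRNP, at the far end of this axis, go from -4.05 and -3.54 in H1437 to 5.28 and 4.98 in PC9.

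Against the untreated range as a whole, the IMT1 value was below all 3 numbered untreated libraries for 3 of 38 rows in H1437 (RNR1, RNR2, and COX2), for 15 rows of H23, and for 1 row of PC9 (RNR2). It was above them for 10 rows of H1437, 5 of H23, and 5 of PC9. All 10 of these H1437 rows were above the untreated range in the control too, and with the control added to the range the rows above numbered 1, 4, and 4. TRNP and the D-loop were above in H23 and PC9, as were TRNC and TRNY. Untreated replicate 1 listed most tRNA gene rows at 0 in H1437 and PC9. With it left out, the rows below numbered 22 for H1437, 21 for H23, and 18 for PC9. With replicate 2 left out, the rows above numbered 14, 13, and 16. These ranges were chosen after seeing the data. In the IMT1 experiment, gene rows at 0 were ATP8 in the PC9 control and TRNR and TRNL2 in the H1437 control. TRNG was at 0 with IMT1 in PC9. A count of 0 on these gene rows allows up to 4.44, 6.52, and 5.87 CPM (3 counts). It sets no limit on the interval as a whole. On their second rows, TRNR and TRNL2 held 293.5 and 47.8 CPM in the H1437 control. TRNG held 142.7 CPM with IMT1 in PC9, and ATP8 was at 0 on its second row too.

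The kind of annotation row also moved with IMT1. Each gene has a gene row and a second row of the same interval (rRNA, CDS, or tRNA), and the gene row never held more counts. The 13 coding gene rows held 49.1% of the counts on the CDS rows in the H1437 control and 77.1% with IMT1, 58.5% and 59.3% in H23, and 54.6% and 33.7% in PC9. For COX1 the shares were 30.9% and 76.3% in H1437, 34.7% and 49.5% in H23, and 44.0% and 18.8% in PC9. The untreated libraries ranged from 7.48% to 56.2% over the coding rows in H1437, so that the IMT1 library was above them, and from 27.2% to 57.8% in PC9, where it was within them. The share of the rRNA rows was higher with IMT1 than in the control and each untreated library of every line, with 88.5% in the control and 93.1% with IMT1 for H1437, 92.6% and 94.8% for H23, and 85.3% and 89.4% for PC9. That of the tRNA rows was also higher than in the control of each line, at 52.6% and 59.9%, 51.0% and 79.0%, and 22.6% and 53.7%. In PC9 it was within the untreated libraries, and in H1437 it was close to untreated replicate 3, at 59.6%. The tables do not show which reads make up the difference. On CDS, rRNA, and tRNA rows, the rRNA and coding classes kept their direction in each line, and the tRNA sum was lower in all 3 lines, with log2 ratios of -2.40, -0.33, and -0.35.

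**Figure D5:**
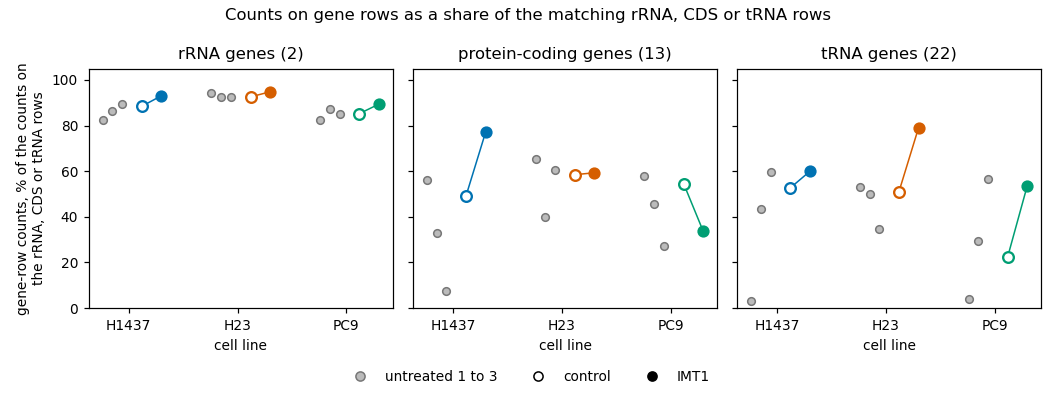
Counts on gene rows as a percentage of the counts on the rRNA, CDS, or tRNA rows of the same genes, by cell line, with untreated replicates 1 to 3 in gray, the control as an open circle, and IMT1 as a filled circle. The rRNA shares lie between 82.2% and 94.8% in all libraries, the rRNA and tRNA shares go up with IMT1 in every line, and the coding share goes up in H1437 and down in PC9.

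Reads mapped to ChrMT made up 5.30% of total reads in the H1437 control and 1.14% with IMT1, 30.5% and 9.83% in H23, and 6.73% and 3.94% in PC9. The untreated libraries ran from 3.04% to 6.63% in H1437, 11.0% to 24.4% in H23, and 1.89% to 7.45% in PC9. The IMT1 library was below this range in H1437 and H23 and within it in PC9, and the H23 control was above it. Relative to the mapped reads, 2 rows were lower in all 3 lines, RNR1 (log2 ratios -0.41, -0.67, and -0.29) and TRNS2 (-0.38, -2.28, and -1.92). There were 8 rows higher in all 3 lines, ND2, ND6, COX1, TRNQ, TRNA, TRNN, TRNC, and TRNY. RNR2 was at 0.24 in H1437, 0.02 in H23, and -1.48 in PC9. These values give the makeup of the mapped reads, and a row can be higher on this scale and lower per total read, as COX1 was in H1437 and H23.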

How the data were processed

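J2 RIP-seq libraries were sequenced as long PCR-cDNA reads on a nanopore device. The authors used minimap2 2.17-r941 with the mitochondrial sequence as the sole reference, and deposited raw counts of reads per annotation row from featureCounts, which needed an overlap of at least 6 bases and left out multi-mapping reads. These counts were not normalized. They also deposited counts of mapped and total reads (SAMtools 1.10) and the annotation. The methods state in one place that a read may count for several overlapping features and in another that overlapping reads were excluded. The 2 libraries of the ADAR1 knockdown experiment were not used here.

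Counts were scaled to total reads in Python 3.11.15 (pandas 2.3.3, numpy 2.4.6, scipy 1.17.1), with a pseudocount of 0.5 read in log2 ratios. Rows with at least 10 counts in at least 3 of 6 libraries entered the quasi-likelihood test of edgeR 4.0.16 (cell line as a block, library size set to total reads, Benjamini-Hochberg adjustment) in R 4.3.3, and with DESeq2 1.42.0 (mean dispersion trend) as an alternative. The SE is the log2 fold change over the root of the F statistic. Every pair of untreated or control libraries within a line differed beyond sampling noise (chi-square of the row counts). The numbered untreated libraries are separate samples in the labels and independent experiments per the study, and the tests of the 6 libraries measure the spread between lines. The members and lists were chosen with earlier results of these data known. Full values were given for RNR1, RNR2, and the D-loop, for the 3 coding and 3 tRNA genes with the lowest mean log2 ratio among those lower in all 3 lines (only 2 tRNA genes were), for any gene higher in all 3 lines, and for minus-strand genes by their range. Other rows were named after their values were seen. No sequence is shown.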

Additional observations from a re-analysis of the deposited data

Results flagged for a closer look

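The coding, tRNA, and D-loop sums went opposite ways in the cell lines, with counting intervals clear of a ratio of 1. The log2 ratio of the coding sum was -0.99 in H1437, -1.52 in H23, and 0.79 in PC9. That of the tRNA sum was -2.21, 0.31, and 0.90, and that of the D-loop row -4.05, 0.38, and 5.28. Each line contributes 1 pair of libraries, so the difference of these sums between lines was not tested. For single rows, the fit with a treatment term per line gave an adjusted P of 1.00 for the D-loop and for TRNP (edgeR). The PC9 control held 117.0 D-loop counts per 1000000 total reads, below the 3 untreated PC9 libraries at 155.6 to 2645. With the mean of the 3 untreated libraries in place of this control, the PC9 log2 ratio was -0.60 for the coding sum, 0.50 for the tRNA sum, and 2.06 for the D-loop.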

How the results depend on the processing

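No paired analysis was possible on the replicate numbers because the IMT1 libraries carry none that match a control, and the cell line served as the pair. The mean log2 ratio of the rRNA sum was negative under each alternative, from -2.20 to -0.43. With mapped reads as the denominator, 2 rows were lower and 8 higher in all 3 lines, and the means turned to 0.97 for the coding and 1.20 for the tRNA sum. On CDS, rRNA, and tRNA rows, 13 of 35 rows were lower in all 3 lines, and the mean rank correlation with distance went from 0.12 to 0.30. Without 1 pair at a time, from 9 to 20 rows were lower and from 1 to 3 higher in both remaining lines, the tRNA mean ran from -0.95 to 0.60, and the D-loop mean from -1.83 to 2.83. The count called went from 0 to 1 (TRNS2) with DESeq2 on either size factor and ran from 0 to 5 without 1 pair. Without untreated replicate 1, 61 values over the 3 lines were below the untreated range, against 19, and the counts without 1 replicate ran from 19 to 61. Above the range were 20 values, 9 with the control added, and from 20 to 43 without 1 replicate (43 without replicate 2). In the other 52 comparisons, the mean of each sum over the lines kept its sign and the counts stayed within 1.5 times. The rank correlation stayed within 1 SD of the lines. Single lines could still turn where the mean did not. Against the mean of the untreated libraries, the coding sum turned to 0.92 in H1437 and -0.60 in PC9. On CDS, rRNA, and tRNA rows, the tRNA sum turned to -0.33 in H23 and -0.35 in PC9. The common dispersion was 0.636 over 3 pairs and 0.243 without the PC9 pair.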
